A study of Mus musculus with 24 samples.

Results

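The mRNA levels of 10 genes of the integrated stress response were described in mouse liver: the transcription factors Atf4, Atf5 and Ddit3, the target genes Trib3, Asns, Chac1, Ppp1r15a and Sesn2, and the translation repressors Eif4ebp1 and Eif4ebp3. They were taken by symbol and found by Entrez identifier among the 18171 genes of the expression table, where all 10 had a row. The study compared livers of C57BL/6 mice that overexpressed L2 delta13 (L2d13) with livers of wild-type (WT) C57BL/6 mice, with 12 RNA-seq libraries per genotype. Loxl2, an enzyme that crosslinks collagen, has a splice form known by that name, but the labels do not say what L2 stands for. The sample descriptions hold a digit, 2 or 4, that is left unexplained. It splits each genotype into 6 libraries of set 2 (replicates 1 to 6) and 6 of set 4 (replicates 7 to 12). No treatment is named for any group. The age and sex of the mice, the promoter behind the overexpression and whether each library came from its own animal are not given in the sources used here, so the p-values rest on the spread among libraries, which may be technical in part.

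In the integrated stress response, kinases that sense amino acid shortage, unfolded protein in the endoplasmic reticulum, viral RNA or lack of heme phosphorylate the initiation factor eIF2alpha. General translation then falls, while the ATF4 protein is made more, because upstream reading frames in its mRNA hold translation back under normal conditions. ATF4 protein turns on genes of amino acid supply, redox balance and feedback, and it is itself controlled mainly at translation, so the Atf4 mRNA need not follow its activity. The 4E-BPs, among them the ATF4 target Eif4ebp1 and its relative Eif4ebp3, bind the cap-binding factor eIF4E and block translation unless mTORC1 phosphorylates them.

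ATF4 binds the C/EBP-ATF response element, whose core TGATGNAA was searched on both strands of the promoters, taken from RefSeq (GRCm38.p6) as 250 bases before to 50 bases after the start. Promoters of Eif4ebp1 and Eif4ebp3 were not searched. Of the 8 genes with a searched promoter, 3 held the core. They are printed because they show where the core lies in a gene that was higher in L2d13 livers (Trib3) and in 2 that were not called (Asns, Chac1). Each is given from 5′ to 3′ on the strand of the gene, with the core in capitals. In Trib3 (chr2:152344011-152344310, minus strand) the core lies 14 to 21 bases after the RefSeq start, base 152344060, and reads TGATGTAA on the opposite strand. Gene positions given further below are those of GENCODE M21, where Trib3 starts at base 152344032, so the core lies before that start. In Asns (chr6:7693160-7693459, minus strand) it lies from -23 to -16. In Chac1 (chr2:119350992-119351291, plus strand) it lies from -193 to -186 and reads TGATGCAA on the opposite strand.
Trib3 promoter: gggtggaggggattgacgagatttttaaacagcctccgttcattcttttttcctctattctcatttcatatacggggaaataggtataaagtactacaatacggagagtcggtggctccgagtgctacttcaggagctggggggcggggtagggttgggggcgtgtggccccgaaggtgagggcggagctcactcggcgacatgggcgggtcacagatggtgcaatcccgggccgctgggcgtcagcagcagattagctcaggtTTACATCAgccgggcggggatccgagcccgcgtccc
Asns promoter: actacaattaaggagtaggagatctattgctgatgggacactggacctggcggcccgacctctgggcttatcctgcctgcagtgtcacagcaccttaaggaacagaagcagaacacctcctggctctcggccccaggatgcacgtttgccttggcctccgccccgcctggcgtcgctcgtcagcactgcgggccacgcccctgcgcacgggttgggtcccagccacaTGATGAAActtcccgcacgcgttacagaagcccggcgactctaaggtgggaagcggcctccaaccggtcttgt
Chac1 promoter: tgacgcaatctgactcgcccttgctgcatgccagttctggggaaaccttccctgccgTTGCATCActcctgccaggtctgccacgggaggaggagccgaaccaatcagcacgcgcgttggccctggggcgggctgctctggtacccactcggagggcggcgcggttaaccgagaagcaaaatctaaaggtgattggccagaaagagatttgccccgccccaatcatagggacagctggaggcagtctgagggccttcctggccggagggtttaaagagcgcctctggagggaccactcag
The core stood in 3.97% of all 32841 promoters searched and in 2.32% of the 10880 promoters of genes tested here. The endoplasmic reticulum stress response element, CCAAT and CCACG with 9 bases between them, was in none of the promoters of the 8 genes and in 0.119% of all promoters, with both strands searched. No match of one motif could therefore overlap a match of the other in these promoters. A match is a description of the letters and not of binding.

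Values are FPKM, fragments per unit of transcript length and of mapped fragments, as the authors deposited them. Sums of FPKM ran from 550260 to 722980 per library, 9463 to 11371 genes reached an FPKM of 1, and the number of reads is unknown. Gm21451, a predicted gene on the chromosome of Loxl2, separated the genotypes as labelled, at 40.6 to 266 FPKM in L2d13 libraries and at 0.03 to 1.27 FPKM in WT libraries. Loxl2 itself lay at 0.83 to 2.26 FPKM in L2d13 and at 0.36 to 1.26 FPKM in WT libraries, with overlapping ranges. Some libraries stood apart. L2d13 set 2 replicate 3 had an Alb level of 11019 FPKM, against at least 23035 FPKM elsewhere, and it and WT set 2 replicate 6 had median correlations with the other libraries of 0.934 and 0.925. WT set 4 replicates 9, 10, 11 and 12 lay at 0.952 to 0.969, all other libraries at 0.972 or more. Results were therefore also computed without the first 2 and without all 6 of these libraries; the latter leaves 2 WT libraries in set 4. Exocrine pancreas markers, all 5 of them, reached 5.23 to 37.9 FPKM in L2d13 set 2 replicate 1. Hepatocyte markers were present in every library, with a median summed FPKM of 42050 in L2d13 and 49010 in WT livers. Markers of sinusoidal endothelium (all 6 above 0 in every library) summed to 88.3 to 203 FPKM in L2d13 set 2 and to 35.8 to 90.8 FPKM in WT set 2, but to 34.9 to 75.6 and 23.4 to 77.0 FPKM in set 4. The 6 stellate cell markers, also above 0 throughout, summed to 186 to 443.7 against 130 to 237 FPKM in set 2. The part of these cell types in the results below was not tested, and in bulk RNA fewer cells of a type cannot be told apart from less RNA per cell.

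In L2d13 livers 3 of the 10 genes were higher than in WT livers: Eif4ebp3, Trib3 and Atf5. Atf4 itself did not pass the test, nor did the classical targets Asns, Chac1, Sesn2, Ppp1r15a, Ddit3 and Eif4ebp1. Genes were compared with limma on log2(FPKM + 1), with the set as a term and p-values adjusted by Benjamini-Hochberg over the 10532 genes tested, which include all 10. Of all tested genes, 30.8% were called at an adjusted p under 0.05, 25.9% as higher and 4.86% as lower, so that 3 of 10 is near the share of all genes. The median log2 difference was 0.02 over the 10 genes and 0.12 over all tested genes. Scaling each library by the median of ratios moved the median of all genes by -0.11 and split all calls into 1128 higher and 1162 lower in place of 2730 and 512, and the 3 genes stayed called. They also did so without the 2 and without the 6 libraries of low correlation.

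**Figure D1:**
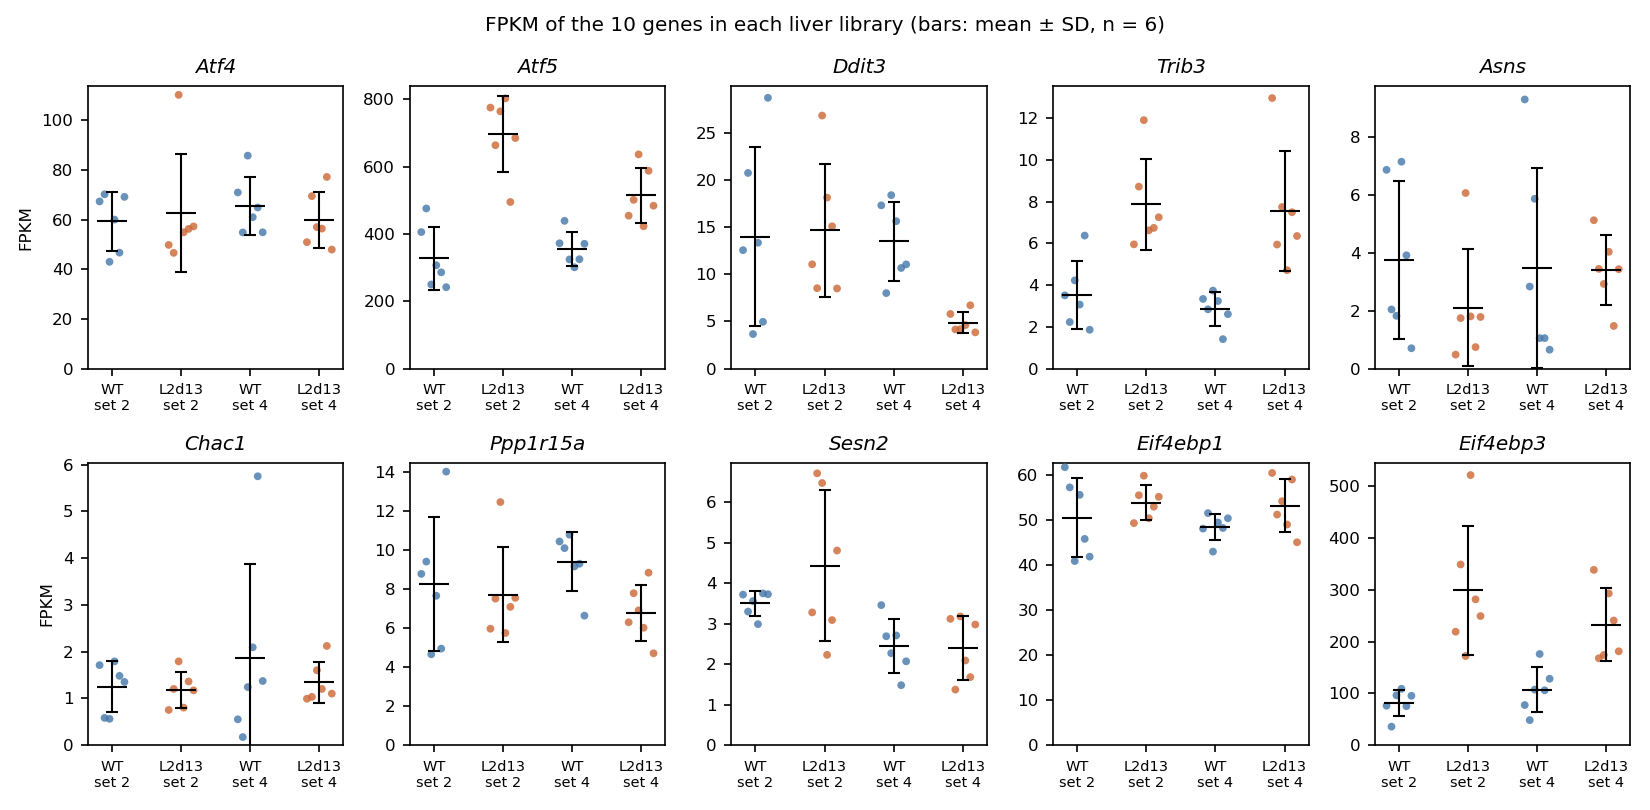
FPKM of the 10 genes in each of the 24 libraries on linear axes from 0, with 1 panel per gene, points for libraries and black bars for the mean ± SD of each group of 6 (L2d13 and WT of sets 2 and 4). Atf5, Trib3 and Eif4ebp3 lie higher in L2d13 livers of both sets, with some overlap for Atf5 and Eif4ebp3 in set 4 and for Trib3 in set 2. Ddit3 lies lower in L2d13 livers of set 4, and the other genes overlap in both sets.

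The levels, which FPKM puts per length, spanned a wide range. In WT livers the order of the means over 12 libraries was Atf5 (341 ± 72.8 FPKM, SD), Eif4ebp3 (94.1 ± 36.8), Atf4 (62.4 ± 11.7), Eif4ebp1 (49.4 ± 6.35), Ddit3 (13.7 ± 7.01), Ppp1r15a (8.82 ± 2.60), Asns (3.60 ± 2.97), Trib3 (3.21 ± 1.28), Sesn2 (2.98 ± 0.745) and Chac1 (1.55 ± 1.45). Atf5 lay above Eif4ebp3 and Eif4ebp1 above Ddit3 in all WT libraries, with no overlap of their ranges, while the other neighbours in this order overlapped. In L2d13 livers Trib3 also stood above Ppp1r15a and Asns in the order of means and Sesn2 above Asns, and the order was otherwise that of WT livers.

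Atf4 mRNA, which encodes the central activator, was similar in range in all groups. In set 2 it ran from 46.6 through a median of 55.6 to 110 FPKM in L2d13 livers and from 43.0 through 63.7 to 70.2 FPKM in WT livers. In set 4 it ran from 47.9 through 56.7 to 77.2 FPKM in L2d13 and from 54.9 through 63.0 to 85.8 FPKM in WT livers. The groups overlapped in both sets, and the 110 FPKM belongs to L2d13 set 2 replicate 3. Over both sets the log2 difference, L2d13 minus WT, was -0.05 ± 0.12 (SE; 95% interval -0.31 to 0.21; adjusted p = 0.807, limma). The sign in set 2 was 0.03 and turned to -0.14 without that library.

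Atf5 encodes a relative of ATF4 that is also controlled at translation and is abundant in liver. In set 2 it ran from 494.8 through a median of 724 to 803 FPKM in L2d13 livers and from 242 through 296 to 476 FPKM in WT livers. In set 4 the values were 423, 492.4 and 636 FPKM against 301, 348 and 439 FPKM. The groups did not overlap in set 2, where 5.44% of all tested genes had every L2d13 library above every WT library, and in set 4 they overlapped by 1 L2d13 library. The log2 difference was 0.82 ± 0.125 (SE; adjusted p = 4.12e-05, limma) over both sets, a fold of 1.77. Within sets it was 1.12 (adjusted p = 8.24e-05) in set 2 and 0.53 (adjusted p = 0.0293) in set 4. The call in set 4 was lost with median-of-ratios scaling (0.44; adjusted p = 0.0666) and without the 6 libraries of low correlation (0.33; adjusted p = 0.410). It was also lost when any 1 of L2d13 set 4 replicates 8, 9 and 11 or WT set 4 replicates 9, 10 and 11 was left out, with differences of 0.46 to 0.53. In the annotation of GRCm38 (GENCODE M21) Atf5 lies at chr7:44812256-44816658 on the minus strand, and its start overlaps Nup62 on the plus strand, which reached no more than 9.22 FPKM. Whether counting used the strand is not given in the sources used here.

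Ddit3 (chr10:127290774-127296288, plus strand) encodes CHOP, a factor induced by ATF4 that promotes cell death under lasting stress. In set 4 it ran from 3.83 through a median of 4.38 to 6.70 FPKM in L2d13 livers and from 7.99 through 13.3 to 18.4 FPKM in WT livers. All 6 L2d13 libraries lay below all 6 WT libraries, as held for 1.70% of all tested genes in set 4. The log2 difference was -1.27 ± 0.35 (SE; adjusted p = 0.0187, limma), and 2.97% of all tested genes were called lower in set 4. In set 2 the groups overlapped widely, with 8.48, 13.1 and 26.8 FPKM as the lowest, median and highest L2d13 values against 3.65, 12.9 and 28.7 FPKM in WT livers. There the log2 difference was 0.24 ± 0.35 (SE; adjusted p = 0.688, limma), and over both sets it was -0.52 ± 0.28 (SE; adjusted p = 0.171, limma). The difference between the sets, -1.51 ± 0.49 (SE), had an adjusted p of 0.363 with limma, so it was not shown that the genotype acts differently on Ddit3 in the 2 sets. With libraries weighted by their quality (limma's array weights) that difference was -1.36 with an adjusted p of 0.0300. Without the 6 libraries of low correlation the call in set 4 was lost (-1.15; adjusted p = 0.133). Over both sets Ddit3 was called lower with array weights (-0.72; adjusted p = 0.00632) and without WT set 2 replicate 3 (-0.69; adjusted p = 0.0371), the lowest WT library. Without the 6 libraries of low correlation the difference over both sets was -0.24 (adjusted p = 0.624), and with median-of-ratios scaling as well it was -0.31 (adjusted p = 0.501). The end of Ddit3 overlaps Mars on the other strand, and the level of Mars1, its name in RefSeq, had a log2 difference of 0.05 (adjusted p = 0.607, limma).

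Trib3 (chr2:152337422-152344032, minus strand) encodes a pseudokinase that binds ATF4 and CHOP as feedback and inhibits AKT in liver. In set 4 it ran from 4.72 through a median of 6.93 to 13.0 FPKM in L2d13 livers and from 1.41 through 3.04 to 3.74 FPKM in WT livers. In set 2 the values were 5.96, 7.005 and 11.9 FPKM against 1.86, 3.29 and 6.38 FPKM. The groups did not overlap in set 4, where 4.86% of all tested genes had every L2d13 library above every WT library, and in set 2 WT replicate 5 alone reached into the L2d13 range. The log2 difference over both sets was 1.06 ± 0.153 (SE; adjusted p = 2.39e-05, limma), a fold of 2.09. It was 1.005 (adjusted p = 0.00412) in set 2 and 1.12 (adjusted p = 0.00211) in set 4. Per unit of Atf4 mRNA, Trib3 stood at 0.131 ± 0.0476 (SD, n = 12) in L2d13 and at 0.0551 ± 0.0320 (SD, n = 12) in WT livers. The call in set 2 was lost only when the 6 libraries of low correlation were left out and the rest scaled by the median of ratios (0.63; adjusted p = 0.0683).

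Asns makes asparagine and is a standard reporter of ATF4 activity. It was low and uneven, at 0.48 to 6.06 FPKM in L2d13 livers (median 2.36) and 0.65 to 9.29 FPKM in WT livers (median 2.43). The highest library stood 12.6-fold above the lowest among L2d13 and 14.3-fold among WT libraries. The groups overlapped in both sets, and the log2 difference was -0.16 ± 0.32 (SE; 95% interval -0.81 to 0.49; adjusted p = 0.738, limma). Without the 6 libraries of low correlation it was -0.91 (adjusted p = 0.0184). Those 6 hold the highest L2d13 value, 6.06 FPKM, and the lowest WT values, 0.65, 0.70, 1.05 and 1.05 FPKM, beside 1 WT value of 5.86 FPKM. In set 2, where the difference was -0.59 (adjusted p = 0.384, limma), Asns was called lower without the 6 libraries (-1.12; adjusted p = 0.0228, limma) and with array weights (-1.26). Leaving out only the 2 libraries of lowest correlation keeps the same libraries of set 2. The estimate was then also -1.12, but it was not called (adjusted p = 0.0708, limma).

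Chac1, which degrades glutathione, was near the limit of the filter, at 0.75 to 2.12 FPKM in L2d13 and 0.17 to 5.75 FPKM in WT livers. Both WT extremes were in set 4, replicates 8 and 11. The log2 difference was -0.05 ± 0.19 (SE; 95% interval -0.44 to 0.35; adjusted p = 0.884, limma), and its sign turned to 0.10 without WT set 4 replicate 11. Without the 6 libraries of low correlation it was 0.24 over both sets, and in set 4 it was 0.78, which with median-of-ratios scaling as well became 0.80 (adjusted p = 0.0411).

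Ppp1r15a encodes GADD34, which brings a phosphatase to eIF2alpha and so ends the response. In set 4 it ran from 4.70 through a median of 6.59 to 8.83 FPKM in L2d13 and from 6.63 through 9.69 to 10.8 FPKM in WT livers. In set 2 the values were 5.74, 7.29 and 12.4 FPKM against 4.65, 8.21 and 14.01 FPKM. All 6 L2d13 libraries of set 4 were below the WT mean of that set, although the groups overlapped. The log2 difference was -0.24 ± 0.144 (SE; adjusted p = 0.219, limma) over both sets and -0.43 (adjusted p = 0.151) in set 4. It was called as lower over both sets with median-of-ratios scaling (-0.36; adjusted p = 0.0284), with quantile normalization (-0.35; adjusted p = 0.0372) and with array weights (-0.29; adjusted p = 0.0217). In set 4 it was called as lower with median-of-ratios scaling (-0.51), with array weights (-0.44) and without the 2 libraries of low correlation (-0.43).

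Sesn2, a stress-induced inhibitor of mTORC1, spread more in L2d13 set 2 (2.23 to 6.72 FPKM, median 4.04) than in WT set 2 (2.99 to 3.75 FPKM, median 3.64). In set 2, 3 L2d13 libraries lay above and 1 below all WT libraries. In set 4 both genotypes had like ranges, 1.37 to 3.18 FPKM and 1.48 to 3.46 FPKM. The log2 difference over both sets was 0.08 ± 0.134 (SE; 95% interval -0.19 to 0.36; adjusted p = 0.668, limma), and it was -0.02 with median-of-ratios scaling.

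Eif4ebp3 (chr18:36664060-36665917, plus strand) had the largest difference of the 10 genes over both sets and in set 2, while in set 4 that of Ddit3 was larger in size. In set 2 it ran from 172 through a median of 265 to 522 FPKM in L2d13 livers and from 35.5 through 85.6 to 109 FPKM in WT livers. In set 4 the values were 168, 211 and 339 FPKM against 48.1, 106 and 176 FPKM. The groups were apart in set 2, and in set 4 only WT replicate 10 reached into the L2d13 range. The log2 difference over both sets was 1.51 ± 0.216 (SE; adjusted p = 2.12e-05, limma), a fold of 2.85. It was 1.86 (adjusted p = 0.000318) in set 2 and 1.17 (adjusted p = 0.0117) in set 4. The value in set 4 moved to 0.71 with array weights, to 1.86 without the 6 libraries of low correlation and to 1.93 with median-of-ratios scaling as well, and was called each time. Over all 35 other settings and left-out libraries it kept its call over both sets, with differences of 1.37 to 1.98. In the annotation of GRCm38 a readthrough transcript that starts in Ankhd1 covers Eif4ebp3 on the same strand, and counting could split reads between them. Ankhd1 stood at 5.18 ± 1.93 FPKM (SD, n = 12) in L2d13 and 5.57 ± 1.93 FPKM (SD, n = 12) in WT livers, and its log2 difference was -0.09 (adjusted p = 0.633, limma).

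**Figure D2:**
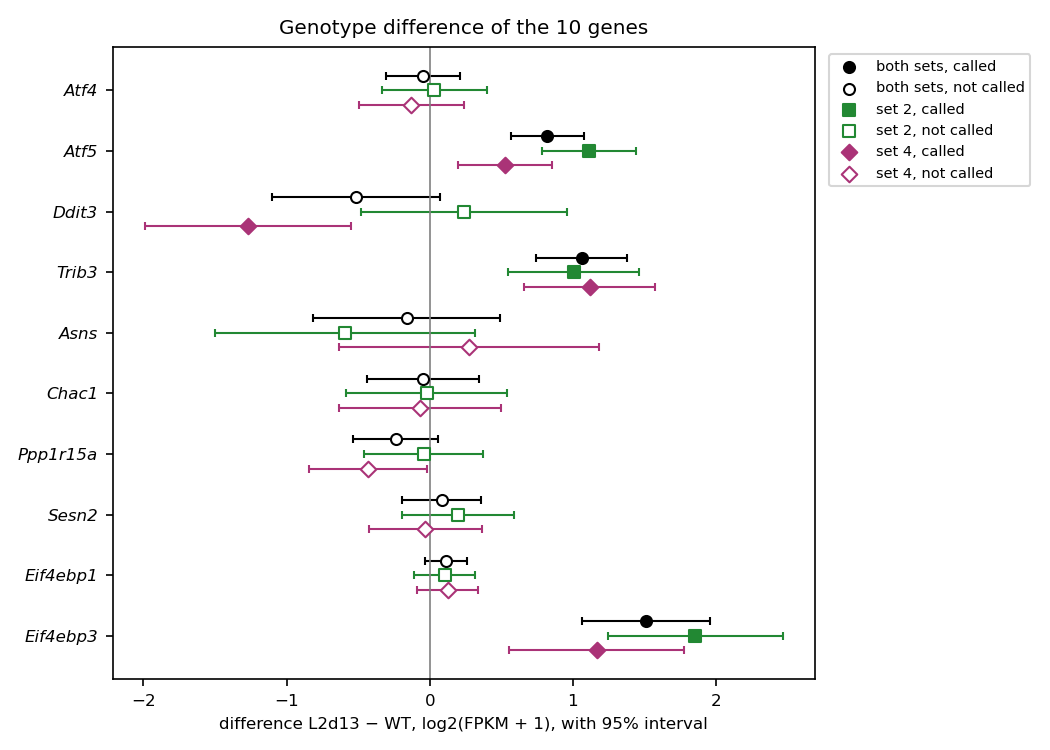
Log2 difference of FPKM + 1, L2d13 minus WT, for each of the 10 genes over both sets, in set 2 and in set 4, with points for estimates (filled where called) and bars for 95% intervals. Atf5, Trib3 and Eif4ebp3 lie above 0 in both sets, and Ddit3 lies at -1.27 in set 4 and at 0.24 in set 2.

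Eif4ebp1, the 4E-BP best known as an ATF4 target, differed little between genotypes. It ran from 49.3 through 54.0 to 59.8 FPKM in L2d13 set 2 and from 40.8 through 50.6 to 61.7 FPKM in WT set 2. In set 4 the values were 45.0, 52.6 and 60.4 FPKM against 42.9, 48.8 and 51.5 FPKM. The groups overlapped, and the log2 difference was 0.12 ± 0.072 (SE; 95% interval -0.03 to 0.26; adjusted p = 0.227, limma), which equals the median of all genes and was -0.02 with median-of-ratios scaling. The third family member, Eif4ebp2, was at 38.2 ± 5.93 FPKM (SD, n = 12) in L2d13 and 40.0 ± 5.54 FPKM (SD, n = 12) in WT livers. Eif4ebp3 thus made up 72.7 ± 6.87% of the summed 4E-BP FPKM in L2d13 livers (63.2 to 85.5%) and 49.6 ± 11.7% in WT livers (26.8 to 67.3%). The sum was 357 ± 102 FPKM (SD, n = 12) against 183.5 ± 33.4 FPKM (SD, n = 12). Per unit of Eif4e mRNA, which was at 23.8 ± 2.58 and 18.4 ± 3.82 FPKM, it was 15.0 ± 4.04 and 10.6 ± 3.39, with overlapping ranges of 10.1 to 23.4 and 5.42 to 16.7.

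**Figure D3:**
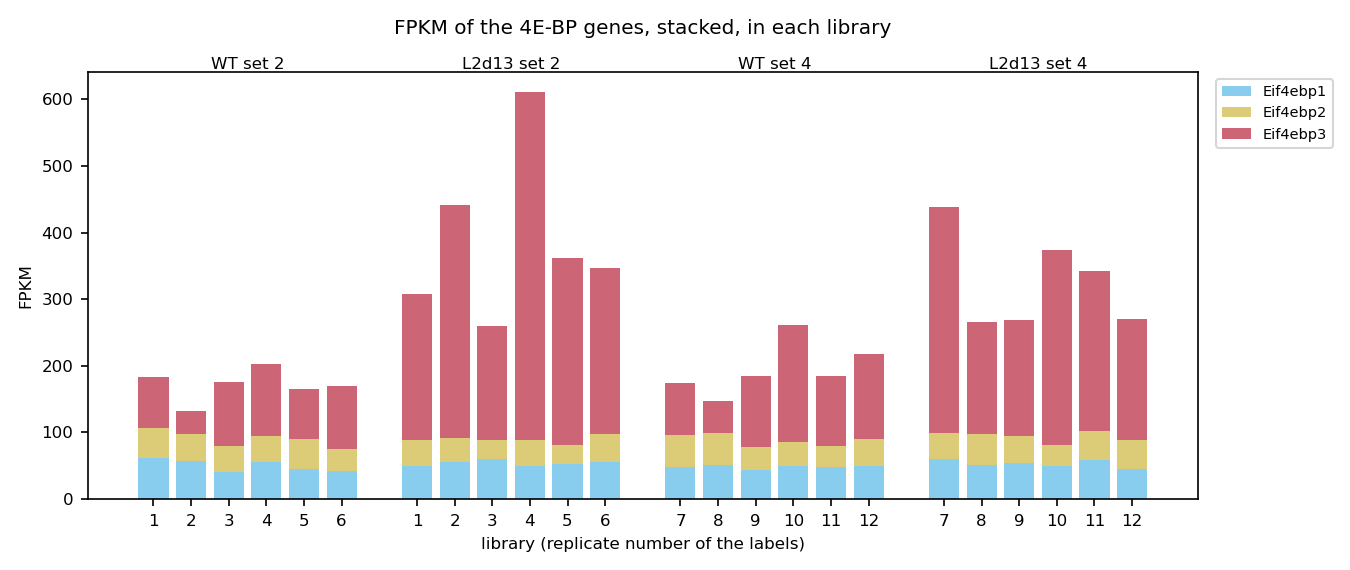
FPKM of Eif4ebp1, Eif4ebp2 and Eif4ebp3 stacked in each of the 24 libraries, on a linear axis from 0. Eif4ebp3 takes 63.2 to 85.5% of the stack in L2d13 livers and 26.8 to 67.3% in WT livers.

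Within set 2, 3 of the 10 genes were called higher, beside 13.0% of all tested genes, and none lower, beside 2.13%. Within set 4, 3 were called higher, beside 10.3%, and 1, Ddit3, lower. For the difference of the genotype effects between the sets, limma called none of the 10 genes and 0.152% of all tested genes; 2 of the 10, Ddit3 and Atf5, had an unadjusted p under 0.05. The log2 difference was smaller in set 4 by 0.59 for Atf5 and by 0.69 for Eif4ebp3, and these differences did not pass. For Eif4ebp3 the gap depended on the libraries: without the 6 of low correlation it stood at 2.06 in set 2 and 1.86 in set 4, and with median-of-ratios scaling as well at 1.90 and 1.93. Between the sets of WT livers limma called none of the 10 genes and 0.190% of all. There 1 of the 10, Sesn2, had an unadjusted p under 0.05 and was also lower in set 4 (-0.41 ± 0.19, SE). For Sesn2 the difference of the genotype effects between the sets was -0.23 ± 0.27 (SE; adjusted p = 0.884, limma). Between the sets of L2d13 livers Ddit3 (-1.32 ± 0.35; adjusted p = 0.0271, limma) and Sesn2 (-0.64 ± 0.19; adjusted p = 0.0467, limma) were lower in set 4, where 6.06% of all genes were called, 5.51% as lower. Neither call remained with median-of-ratios scaling (Ddit3 -1.12, adjusted p = 0.0557; Sesn2 -0.46). Among L2d13 livers the summed endothelial markers (88.3 to 203 FPKM in set 2, 34.9 to 75.6 FPKM in set 4) and stellate cell markers (186 to 443.7 FPKM in set 2, 96.0 to 150 FPKM in set 4) were also lower in set 4, and their part in this was not tested.

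Variation between libraries of the same group showed which of the genes moved together. With group means removed, over 24 libraries, Atf4 correlated with Ppp1r15a at r = 0.82 and with Ddit3 at r = 0.75, and Ddit3 with Ppp1r15a at r = 0.75. Over the 22 libraries without the 2 of lowest correlation the values were 0.82, 0.73 and 0.59. Trib3 followed another course, at r = -0.00 with Atf4, 0.54 with Sesn2 and 0.50 with Asns. Over 22 libraries these were -0.27, 0.53 and 0.32, and over the 18 without the 6 of low correlation -0.44, 0.46 and 0.20. Atf5 correlated with Eif4ebp1 at r = 0.58 and with Eif4ebp3 at r = -0.55, which became 0.57 and -0.21 after median-of-ratios scaling. The points share their libraries: Atf4 and Ppp1r15a also followed the scale factor of the library, at r = 0.60 and 0.67. Of the other 10531 tested genes 14.04% reached r = 0.7 with Atf4, 17.6% with Ppp1r15a and 10.4% with Ddit3, but 0.0760% with Trib3. After median-of-ratios scaling 1.99% reached it with Atf4, and Atf4 still stood at 0.72 with Ppp1r15a and 0.66 with Ddit3. These correlations are descriptions and carry no test.

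**Figure D4:**
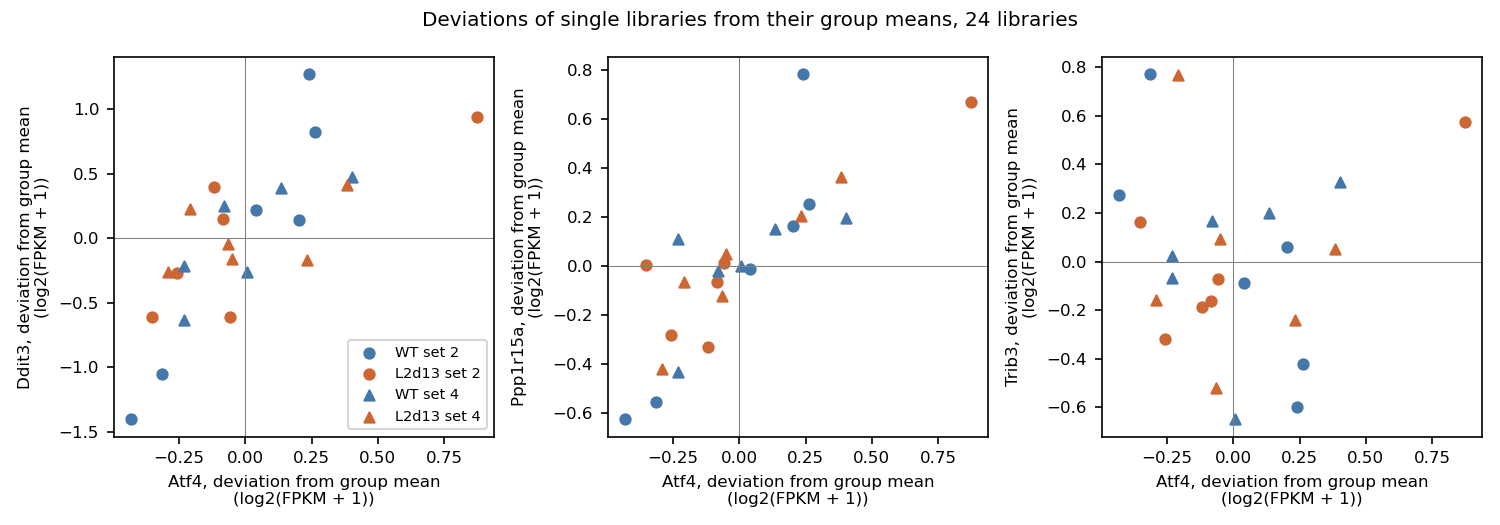
Deviation of log2(FPKM + 1) from the group mean for Ddit3, Ppp1r15a and Trib3 (vertical axes) against that of Atf4 (horizontal axis), with 1 point per library, 24 in all. Ppp1r15a and Ddit3 rise with Atf4 (r = 0.82 and 0.75), and Trib3 does not (r = -0.00).

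The genes whose course within groups was most like that of Atf4 over 24 libraries were Mapkapk5 (r = 0.93), Slc35a4 (0.92), Parp6 (0.91), Saysd1 (0.91) and Igflr1 (0.90), and none of these was called between genotypes (log2 differences of -0.11 to 0.00). Most like Trib3 were Cirbp (r = 0.80), Cry2 (0.72), Pbld1 (0.72), Vmac (0.72) and Bmf (0.72). Of these, 4 were called higher in L2d13 livers, beside 25.9% of all tested genes. They were Cirbp, a cold-induced RNA-binding protein, by 0.75 (log2; adjusted p = 0.00136, limma), Cry2, a repressor of the circadian clock, by 0.59 (adjusted p = 0.000189), Bmf, a promoter of apoptosis, by 0.47 (adjusted p = 0.0171) and Pbld1 by 0.31 (adjusted p = 0.0129). Vmac (0.19) was not called. Bmf averaged 1.34 FPKM in L2d13 and 0.717 FPKM in WT livers, near the filter. It may have passed the filter mainly through L2d13 libraries, so its call may depend on the filter. Most like Eif4ebp3 were Hsd17b10 (r = 0.77), Kcnn2 (0.76), Cdo1 (0.75), Bhmt (0.75) and Slc6a12 (0.73), with log2 differences from -0.07 for Kcnn2 to 0.65 for Bhmt. Of these, Hsd17b10 (0.46; adjusted p = 0.0222, limma) and Slc6a12 (0.32; adjusted p = 0.0285, limma) were called higher, beside the same 25.9% of all tested genes.

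Around these genes, 100 others were listed by role in the pathway, of which 85 passed the filter. Over both sets 32 were called higher and 9 lower, beside 25.9% and 4.86% of all tested genes. These shares are the background for the calls of each list below on values as deposited with all libraries. The median log2 difference was 0.12, the same as over all genes. Within set 2, 10 of the 85 were called higher and 4 lower, beside 13.0% and 2.13% of all tested genes. Within set 4, 19 were higher and 7 lower, beside 10.3% and 2.97%. These shares are the background for list counts within a set below. With median-of-ratios scaling 9 were higher and 14 lower, beside 1128 and 1162 of all 10532 tested genes. Without the 6 libraries of low correlation 17 were higher and 9 lower, beside 1542 and 491 of 10320. List counts under these 2 settings below have these numbers as their background. Upstream, 3 of the 4 eIF2alpha kinases were called higher: Eif2ak1, the heme sensor, by 0.34, Eif2ak2, the sensor of double-stranded RNA, by 0.32 and Eif2ak4, the amino acid sensor, by 0.20. Eif2ak3, the kinase of the endoplasmic reticulum, was at -0.00 (adjusted p = 0.985, limma), and none of the 4 was called with median-of-ratios scaling. Of 13 genes listed for eIF2, its exchange factor eIF2B and the phosphatase, 9 were higher and none lower. Those of smallest p were Eif2b4 (0.52), Eif2s1 (0.50), Eif2b2 (0.40) and Eif2b5 (0.41). With median-of-ratios scaling 4 of the 13 were higher. The list also holds Dnajc3, which is neither a factor subunit nor part of the phosphatase. It was called both as deposited (0.62) and with median-of-ratios scaling (0.48). Without the 6 libraries of low correlation 1 of the kinases and 6 of these 13 genes were called higher.

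Among the 6 tested bZIP partners none was called higher over both sets and 2 were lower. None was higher and 1 lower within set 2, while 1 was higher and 2 lower within set 4. For the difference of the genotype effects between the sets 1 of the 6 was called, beside 0.152% of all tested genes. Cebpb, which pairs with ATF4 at the response element, stood at 37.3 ± 11.8 FPKM (SD, n = 12) in L2d13 and 86.4 ± 34.8 FPKM (SD, n = 12) in WT livers; the log2 difference was -1.13 ± 0.21 (SE; adjusted p = 0.000251, limma). Atf3, a stress-induced repressor, was lower by 0.41 on this scale, at 0.457 and 0.982 FPKM. Both means lay below the 1 FPKM of the filter. Atf3 may have passed it mainly through WT libraries, so its call may depend on the filter. Cebpa (0.23) and Nfe2l2 (-0.26) were not called. Nfe2l2 was called lower with median-of-ratios scaling (-0.39; adjusted p = 0.00629), with quantile normalization (-0.36; adjusted p = 0.0194) and without the 2 libraries of low correlation (-0.24; adjusted p = 0.0403). Atf3 did not pass the filter without these 2 or the 6 libraries.

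Among target genes of amino acid supply the roles differed. Of the 6 serine, glycine and one-carbon enzymes only Psph (-0.15) and Shmt2 (-0.12) passed the filter, and neither was called as deposited, although Shmt2 was lower with median-of-ratios scaling (-0.26; adjusted p = 0.0415); Phgdh, Psat1 and Mthfd2, common ATF4 targets, averaged 0.144, 0.325 and 0.642 FPKM. Of the 4 other amino acid enzymes tested, 3 were higher: Got1 (0.92), Gpt2 (0.68) and Cth (0.58), which carry out transamination and cysteine synthesis, while Bcat2 was at 0.39 (adjusted p = 0.0546, limma). With median-of-ratios scaling Cth lost its call (0.44; adjusted p = 0.0807), which left 2 higher, and Bcat2 was called without the 2 (0.34) and without the 6 libraries of low correlation (0.41). Of 14 genes for aminoacyl-tRNA synthetases and tRNA export 6 were higher, those of smallest p being Gars (0.38), Wars (0.36) and Lars (0.37), and 1, Cars (-0.49), was lower. With median-of-ratios scaling 1 was higher and 1 lower, and without the 6 libraries 2 were higher and 1 lower. Of the 5 tested amino acid transporters 2 were lower and none higher. Slc38a2, a neutral amino acid carrier that ATF4 induces, stood at 20.1 ± 3.51 FPKM (SD, n = 12) in L2d13 and 43.7 ± 12.5 FPKM (SD, n = 12) in WT livers; the log2 difference was -1.04 ± 0.14 (SE; adjusted p = 1.22e-05, limma). Slc6a9, a glycine carrier, was at -0.46 (adjusted p = 0.0101, limma), and Slc7a2 (0.47) and Slc3a2 (-0.35) were not called. Slc3a2 was called lower with median-of-ratios scaling (-0.48; adjusted p = 0.00288), with quantile normalization (-0.45; adjusted p = 0.00840) and without the 2 libraries of low correlation (-0.37; adjusted p = 0.0155), and Slc7a2 was called higher without those 2 libraries (0.53; adjusted p = 0.0188).

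Among 12 tested stress effectors 2 were higher and 3 lower over both sets. Of the 12, 2 were higher and 1 lower within set 2, and 1 was higher and 3 lower within set 4. None was called for the difference of the genotype effects between the sets. Gdf15, a hormone released under stress, was at 3.0 ± 1.5 FPKM (SD, n = 12) in L2d13 and 13.9 ± 8.99 FPKM (SD, n = 12) in WT livers; the log2 difference was -1.69 ± 0.32 (SE; adjusted p = 0.000427, limma). Herpud1, which serves the removal of misfolded protein, was at 137 ± 66.4 and 301 ± 122 FPKM (SD, n = 12 each), a log2 difference of -1.16 ± 0.24 (SE; adjusted p = 0.000747, limma). Ddit4, the third that was lower, at -1.23 (adjusted p = 0.00718, limma), is named after its value was seen; without the 6 libraries of low correlation it was at -0.50 and not called. The autophagy gene Map1lc3b (0.30) and the apoptosis gene Bbc3 (0.63) were higher, the former not with median-of-ratios scaling. Gdf15, Herpud1, Cebpb and Slc38a2 stayed called as lower over both sets with either scaling and without the 6 libraries. Of 20 genes of mTORC1 and cap-dependent translation 8 were higher, those of smallest p being Rptor (0.29), Eif4e (0.38), Mtor (0.38) and Eif4b (0.32), none was called with either scaling and 1 was without the 6 libraries. Of 4 tested paralogs of the 10 genes, Sesn1 (0.49) was higher and Chac2 (-0.44) lower, and Sesn3 (0.31) and Trib1 (-0.27) were not called. Trib1 was called lower with median-of-ratios scaling (-0.40), with quantile normalization (-0.38) and without the 6 libraries (-0.41), and Sesn3 higher without the 2 libraries (0.33).

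**Figure D5:**
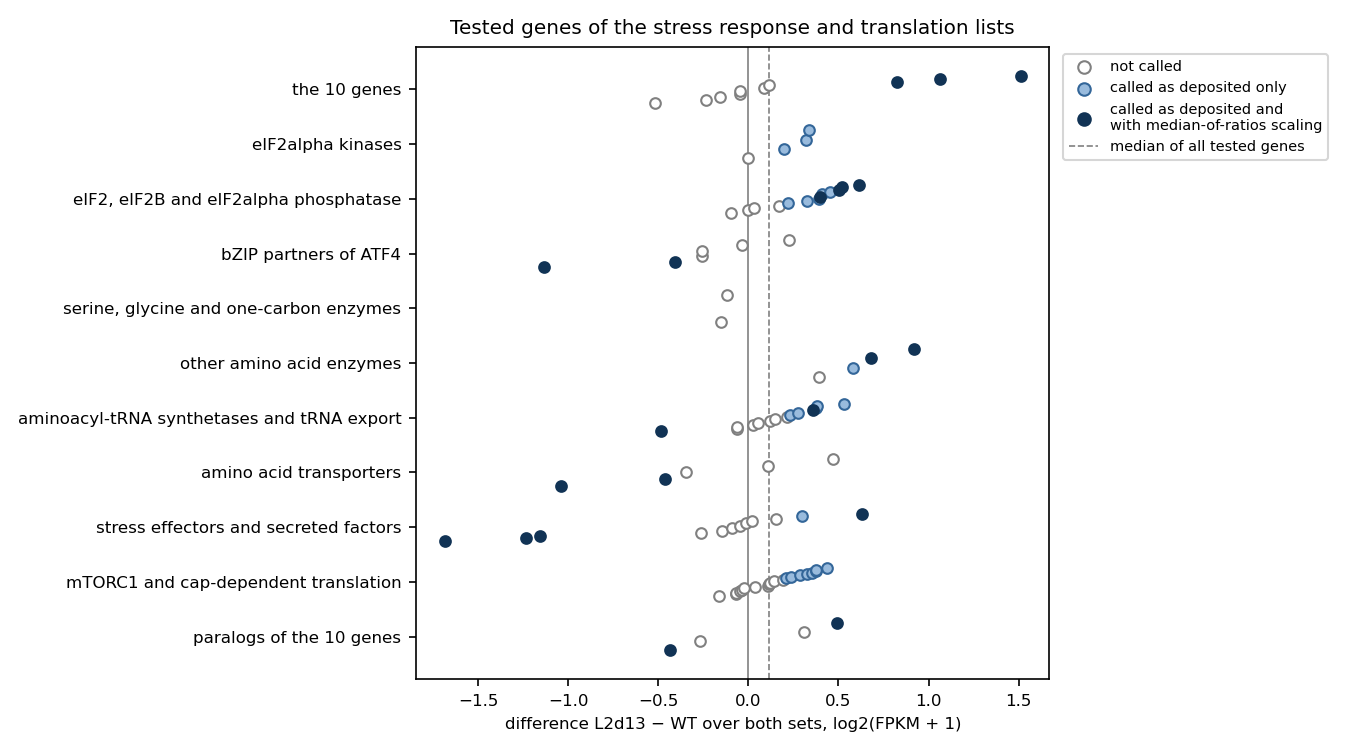
Log2 difference of FPKM + 1, L2d13 minus WT over both sets, of each tested gene in the role lists around the 10 genes, with 1 point per gene, white where not called, light where called as deposited only and dark where also called with median-of-ratios scaling; the dashed line is the median of all tested genes (0.12). Of the list of eIF2, eIF2B and eIF2alpha phosphatase genes, which also holds Dnajc3, 9 of 13 are called higher. Cebpb, Slc38a2 and Gdf15 lie lowest in their lists.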

How the data were processed

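Per the labels' protocols, TRIzol was used for the total liver RNA of the 24 libraries and the BGISEQ-500 platform for sequencing. HISAT, Bowtie2, RSEM and the build GRCm38.p5 are named in the submitters' processing notes, without versions. The FPKM values were used as the authors deposited them, with no count per library, so depth is unknown. Of 18171 identifiers 18040 matched a RefSeq symbol.

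The 10532 genes that reached an FPKM of 1 in 6 or more libraries were fitted as log2(FPKM + 1) with limma 3.58.1 in R 4.3.3, with variances that follow the mean. Genotype over both sets came from a fit with genotype and set, and all other contrasts from a fit with 1 mean per group. Tests were two-sided, and genes at an adjusted p under 0.05 (Benjamini-Hochberg, all genes) were called. Folds include the pseudocount of 1, which understates the change of low genes.

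The 10 genes and the role lists were chosen with earlier results of these data known. Named are up to 4 tested genes of each list, by smallest p, and for likeness the 5 genes of highest correlation, with predicted genes passed over. On simulated data of 10532 genes, with 100 changed at each fold, 95% of those changed 2-fold were found over both sets. Of those changed 1.5-fold 81% were found, and 4 unchanged genes were called. In set 2 these shares were 87% and 54%, with 14 unchanged genes called, and in set 4 84% and 54%, with 7. In the data themselves 30.8% of tested genes were called over both sets, far more than were changed in the simulation. The shares are averages and may not hold for genes of large spread such as Asns and Chac1. Alternatives were other scalings, filters, pseudocounts, weights, a replicate block and left-out libraries; leaving out the 2 and the 6 libraries of low correlation was chosen after seeing the data. Plots used Python 3.11.15 and matplotlib 3.10.9.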

Additional observations from a re-analysis of the deposited data

Results flagged for a closer look

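Outlying libraries were sought on log2(FPKM + 1), although the values below are printed as FPKM. Of the 40 combinations of gene and group, 4 held 1 library whose gap to its nearest neighbour on that scale, divided by the range of the group, exceeded Dixon's 95% critical value for 6 libraries, and chance gives about 1 in 20. L2d13 set 2 replicate 3 was the highest of its group for Atf4 (110.33 FPKM) and for Ppp1r15a (12.45 FPKM). It is also the library with the lowest Alb level, 11019 FPKM. For Ppp1r15a, WT set 4 replicate 12 was the lowest of its group (6.63 FPKM). For Eif4ebp3, WT set 2 replicate 2 was the lowest of its group (35.54 FPKM). Without L2d13 set 2 replicate 3 the difference of Atf4 in set 2 went from 0.03 to -0.14, and neither value was called.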

How the results depend on the processing

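Eif4ebp3, Trib3 and Atf5 were called higher over both sets under all 35 alternatives run for each, with log2 differences of 1.37 to 1.98, 0.79 to 1.28 and 0.68 to 0.87. The cause of the changes below was not tested, and FPKM gives no depth. Of the 10 genes, array weights called 5 over both sets (3 as reported), while over all genes they called 4091 higher and 1417 lower (2730 and 512). Without the 6 libraries 1542 and 491 of all genes were called over both sets. For the interaction array weights called 2 of the 10 (0), beside 71 higher and 270 lower of all genes (3 and 13). When L2d13 livers of set 4 were set against those of set 2 they called 4 (2), beside 215 higher and 2047 lower (58 and 580). Between those sets 1 was called with the filter on mean FPKM (all genes: 33 higher and 294 lower) and with no filter (50 and 588). The count was also 1 with pseudocount 0.1 (53 and 542), without the 2 libraries (59 and 485) and without the 6 (106 and 897). It was 0 with median of ratios (130 and 171), with quantile normalization (136 and 209) and without the 6 libraries with median of ratios (218 and 250). In set 4, 2 were called without the 6 libraries (4), beside 219 higher and 295 lower of all genes (1090 and 313). Pathway genes called were 23 with median of ratios, 25 with quantiles, 26 without the 6 libraries and 24 with both changes (41). With 1 library left out, 3 to 4 genes were called over both sets, 3 in set 2, 3 to 4 in set 4, and 38 to 47 pathway genes.

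The replicate numbers did not pair the libraries: of 12 pairs with the same number 4 had a correlation of deviations over 0.1 (range -0.604 to 0.260), and 1 library correlated best with its own number. With the replicate block 2 of the 10 genes were called in set 4 (Atf5 and Ddit3 had adjusted p of 0.0630 and 0.0772 with limma), beside 513 higher and 166 lower of all genes. It called 3 over both sets (2133 and 393 of all genes) and 3 in set 2 (671 and 136).

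Signs of uncalled differences turned as follows. In set 2, Atf4 (0.03) was -0.20 with array weights, -0.16 with median of ratios, -0.090 with quantiles, -0.093 without the 2 or the 6 libraries, and -0.25 without the 6 with median of ratios. Eif4ebp1 in set 2 (0.11) was -0.036, -0.085 and -0.019 with array weights, median of ratios and quantiles, and -0.13 without the 6 with median of ratios. Over both sets it was -0.023 with median of ratios and -0.027 without the 6 as well. Sesn2 over both sets (0.08) was -0.022, -0.031, -0.042 and -0.10 with median of ratios, quantiles, without the 6 and with both changes. It was -0.021 in set 2 with both changes and 0.019 in set 4 with array weights. Asns in set 4 (0.27) was -0.56 without the 6 and -0.51 with both changes. Chac1 in set 4 (-0.07) was 0.12 with pseudocount 0.1, 0.78 without the 6 and 0.80 with both changes, and over both sets (-0.05) it was 0.058, 0.24 and 0.20. Ddit3 in set 2 (0.24) was -0.085 with array weights. With 1 library left out, in set 2, Atf4 ran from -0.14 to 0.10, Chac1 from -0.12 to 0.048, Ddit3 from -0.044 to 0.49 and Ppp1r15a from -0.18 to 0.11. In set 4 Chac1 ran from -0.28 to 0.23 and Sesn2 from -0.12 to 0.068, and over both sets Chac1 from -0.14 to 0.097. None of the 10 genes was below the filter, so the permutation test planned for such genes was not run.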
